A study of Mus musculus with 3 samples.

Results

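The Ifi200 family is a cluster of interferon-inducible genes on mouse chromosome 1 whose proteins bind nucleic acids. Described here are 9 of its genes, Ifi203, Ifi204, Ifi205, Ifi206, Ifi207, Ifi209, Ifi211, Ifi213 and Mndal, out of 31053 genes counted. They were matched by symbol, and all 9 were found in every library. Monocytes and macrophages were isolated from wounded skin at 3, 6 and 10 days after injury, and all mice were C57BL6/J males, a standard inbred strain. No genotype other than wild type and no treatment other than the wound was used, and no unwounded skin was analysed. The isolation gates are not given in the sources used here. Each day was 1 droplet library (10x Chromium) pooled from 2 mice. Pooling hides the variation between animals, so differences between days describe these 3 libraries. No test was run, and the intervals given are 95% intervals for counting error only.

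Family proteins typically carry a PYRIN domain, through which they bind other proteins, and 1 or more HIN domains, which bind DNA. In cells of the monocyte lineage, type I interferon induces many of the genes, and some of the proteins act in turn upstream of interferon through the adaptor STING. Their best-known relative, Aim2, binds DNA in the cytosol and assembles an inflammasome with Pycard (ASC) and caspase-1. Wounds expose myeloid cells to DNA and RNA of dead cells.

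The filter kept 900, 598 and 1362 cells at days 3, 6 and 10, with 9757866, 7263942 and 12115163 unique molecular identifiers (UMIs, counted mRNA molecules) and medians of 10629, 11778.5 and 8285 UMIs per cell. Cells were sorted in silico by UMIs of 3 genes. The Ly6c2 gate took cells with at least 2 UMIs of Ly6c2, a surface protein gene of inflammatory monocytes, and at most 1 of C1qa and of Cd209a. The C1qa gate took cells with at least 2 UMIs of C1qa, a complement gene of macrophages, and at most 1 of the other genes. The Cd209a gate took cells with at least 2 UMIs of Cd209a, a lectin gene of monocyte-derived dendritic cells, and at most 1 of C1qa. These gates held 347, 22 and 79 cells (Ly6c2), 128, 107 and 165 cells (Cd209a) and 70, 273 and 655 cells (C1qa) at days 3, 6 and 10. Another 69, 11 and 4 cells had both Ly6c2 and C1qa, and 286, 185 and 459 cells met none of these definitions. Comparisons were made only between sums of at least 50 cells, which leaves the day 6 Ly6c2 gate with its 22 cells as a description. Markers were summed without the 3 genes that define the gates. The other 8 macrophage genes summed to 13517, 19615 and 22118 CPM (counts scaled to the total of a sum of cells) in the C1qa gate at days 3, 6 and 10, and to 323.6, 358.9 and 318.8 CPM in the Cd209a gate. The other 9 dendritic cell genes summed to 633.7, 833.9 and 730.1 CPM in the Cd209a gate, against 6.37, 32.9 and 17.0 CPM in the C1qa gate. The other 8 monocyte genes summed to 9759, 8776 and 9156 CPM in the Ly6c2 gate. In all kept cells, erythroid genes summed to 1455 CPM at day 6, against 1.13 and 0.495 CPM at days 3 and 10. The neutrophil list reached 2758 CPM in the 22 cells of the day 6 Ly6c2 gate, where 6 of its 7 genes were above 0. The remaining gene, Ly6g, was at 0 there and in every other sum. In the same 22 cells the T or NK list reached 145.9 CPM.

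The 9 genes lie within 563 kb, at chr1:173468485-174031810 (GRCm38, GENCODE vM21), with 8 on the minus strand and Ifi209 on the plus strand. Aim2 lies just outside this span, next to Ifi206. RefSeq promoter windows (GRCm38.p6) were found for 8 of the members, all but Ifi204. The 250 bases before each start were searched on both strands for GAAANNGAAA. This pattern is the core of the interferon-stimulated response element, which is bound by proteins of the IRF family. The pattern was found in 7 of the 8, counting a gene if any of its windows matched. By the same count it was found in 936 of 27025 genes (3.46%). By window it was found in 978 of 32851 promoter windows of the genome (2.98%). In 5 members the match was the same 10-base word, GAAATCGAAA. That word was searched for only after the members' promoters had been read, and it occurred in 13 of 32851 windows (0.0396%). The 13 windows belonged to 13 of 27025 genes (0.0481%), and 7 of these were family members or relatives. The 60 bases around the match are shown, on the strand of each gene, because they hold the sequence feature that 7 of these 8 members share. Where RefSeq lists several starts, the start with a match on the strand of the gene is shown. Mndal also had a match on the opposite strand, TTTCTCTTTC, 54 bases before its other start. Capitals mark the match or, in Ifi209, the aligned 10 bases.

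Ifi203: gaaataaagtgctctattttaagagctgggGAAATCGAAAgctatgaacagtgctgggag
Mndal: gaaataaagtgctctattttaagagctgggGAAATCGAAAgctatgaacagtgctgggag
Ifi206: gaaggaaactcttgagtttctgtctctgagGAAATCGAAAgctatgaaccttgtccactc
Ifi213: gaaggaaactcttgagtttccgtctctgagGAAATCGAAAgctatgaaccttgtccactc
Ifi207: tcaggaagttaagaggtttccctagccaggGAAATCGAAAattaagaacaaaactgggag
Ifi205: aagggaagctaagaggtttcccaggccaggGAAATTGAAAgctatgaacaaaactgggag
Ifi211: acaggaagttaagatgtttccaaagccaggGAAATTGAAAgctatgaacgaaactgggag
Ifi209: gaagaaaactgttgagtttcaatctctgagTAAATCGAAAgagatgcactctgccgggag

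The windows lie at chr1:173942498-173942557 (Ifi203), chr1:173880194-173880253 (Mndal), chr1:173491329-173491388 (Ifi206), chr1:173599316-173599375 (Ifi213), chr1:173741821-173741880 (Ifi207), chr1:174031860-174031919 (Ifi205), chr1:173913054-173913113 (Ifi211) and chr1:173630750-173630809 (Ifi209). The capitals begin between 35 (Ifi203) and 134 (Ifi205) bases before the start. Counted from the first base of GAAATCGAAA, Ifi205 and Ifi211 differ from it by C6T and Ifi209 by G1T, and only the last of these changes breaks the GAAANNGAAA pattern. The windows of Ifi203 and Mndal were identical over 60 bases. Those of Ifi206 and Ifi213 matched at 59 of 60 bases and those of Ifi205 and Ifi211 at 53, whereas Ifi206 and Ifi207 matched at 30. The relatives Ifi208 and Ifi214 also held GAAATCGAAA, 58 and 79 bases before their starts. The windows of the relatives Aim2 and Ifi202b held neither pattern. That of Aim2 reads as follows at chr1:173420354-173420603 on the plus strand.

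Aim2: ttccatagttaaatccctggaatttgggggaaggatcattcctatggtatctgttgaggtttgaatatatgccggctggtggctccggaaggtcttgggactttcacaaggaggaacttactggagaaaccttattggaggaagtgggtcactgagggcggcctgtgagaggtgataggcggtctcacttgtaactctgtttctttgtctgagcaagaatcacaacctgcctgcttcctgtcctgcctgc

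These matches are letters in a window and say nothing of which factor is bound there.

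All 9 members were at their highest at day 3 and at their lowest at day 10. Over all kept cells the members summed to 2279 CPM at day 3 (95% Poisson interval 2249 to 2309), 935.4 CPM at day 6 (913.3 to 958.0) and 555.3 CPM at day 10 (542.1 to 568.8). At day 10 the sum was 0.244 times the day 3 level (0.237 to 0.25), and at day 6 it was 0.410 times that level (0.399 to 0.422). All 9 were lower by at least 1.5-fold at day 10 than at day 3, when 8.94% of the 11289 genes with at least 20 UMIs were. The members' median log2 ratio was -2.44, against 0.17 over all genes tested. At day 6, 9 members were lower than at day 3, against 7.79% of genes. Of these, Ifi207 was only just past the threshold, at 0.665 times (0.625 to 0.708). Its difference ranged from 1.43-fold to 1.65-fold over the settings tried. Between day 10 and day 6, 7 members were lower, against 10.3% of genes, and Ifi207 and Ifi213 at 0.707 and 0.672 times were just short of the threshold. The log2 ratio of Ifi213 there was -0.57, and -1.18 with the mean of per-cell CPM and -0.31 in cells reduced at random to 2000 UMIs.

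Ifi204 encodes p204, the mouse protein most often set beside human IFI16 and known to act upstream of STING in DNA sensing. It had 462.3, 165.9 and 97.2 CPM at days 3, 6 and 10 (4511, 1205 and 1178 UMIs), so that day 10 stood at 0.210 times day 3 (0.197 to 0.224). Ifi203, which encodes the nuclear protein p203, had 341.8, 137.9 and 79.4 CPM. Mndal, which encodes a nuclear protein that restrains cell growth in culture, had 277.9, 149.9 and 83.7 CPM. Their day 10 levels were 0.232 (0.216 to 0.25) and 0.301 (0.280 to 0.324) times day 3.

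Ifi207 encodes a nuclear protein reported to promote cytokine transcription in mouse macrophages, and it differed least between days. It had 312.2, 207.7 and 146.9 CPM at days 3, 6 and 10, and its day 10 level was 0.471 times day 3 (0.444 to 0.499). The interval did not overlap that of any other member. Ifi205, whose protein p205 is reported to control Pycard transcription in mouse macrophages, had 104.0, 43.2 and 15.4 CPM, and a day 10 level of 0.148 times day 3 (0.126 to 0.174).

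The other members are less well studied. Ifi209 had 327.6, 95.3 and 60.2 CPM at days 3, 6 and 10, and Ifi211 had 292.7, 96.1 and 51.3 CPM. Most of their difference lay between days 3 and 6, where day 6 was 0.291 times (Ifi209) and 0.328 times (Ifi211) day 3. Ifi206 had 78.0, 22.2 and 9.57 CPM, and Ifi213 had 82.5, 17.2 and 11.6 CPM. These were the members with the smallest day 10 to day 3 ratios, 0.123 (0.100 to 0.149) for Ifi206 and 0.140 (0.116 to 0.168) for Ifi213.

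Among the relatives, Aim2 did not share this course. It had 23.3, 32.5 and 30.6 CPM at days 3, 6 and 10, and its day 10 level was 1.32 times day 3 (1.11 to 1.56). Inside the Ly6c2 and C1qa gates defined above, its ratios of 1.16 (0.701 to 1.86) and 1.37 (0.739 to 2.80) did not differ from 1 beyond counting error. In the Ly6c2 gate its log2 ratio was 0.22, but -0.45 in cells reduced at random to 2000 UMIs and -0.12 with a gate at 3 UMIs. Ifi208, with 17.1, 5.64 and 3.30 CPM, and Ifi214, with 14.7, 4.82 and 2.39 CPM, were lower at both later days, at 0.193 and 0.163 times day 3 at day 10. Ifi202b, a gene known for strain-dependent expression, had 1, 0 and 1 UMIs. Of the 12 protein-coding genes nearest to the outermost members, Aim2 included, 7 had under 20 UMIs over the 3 libraries.

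**Figure D1:**
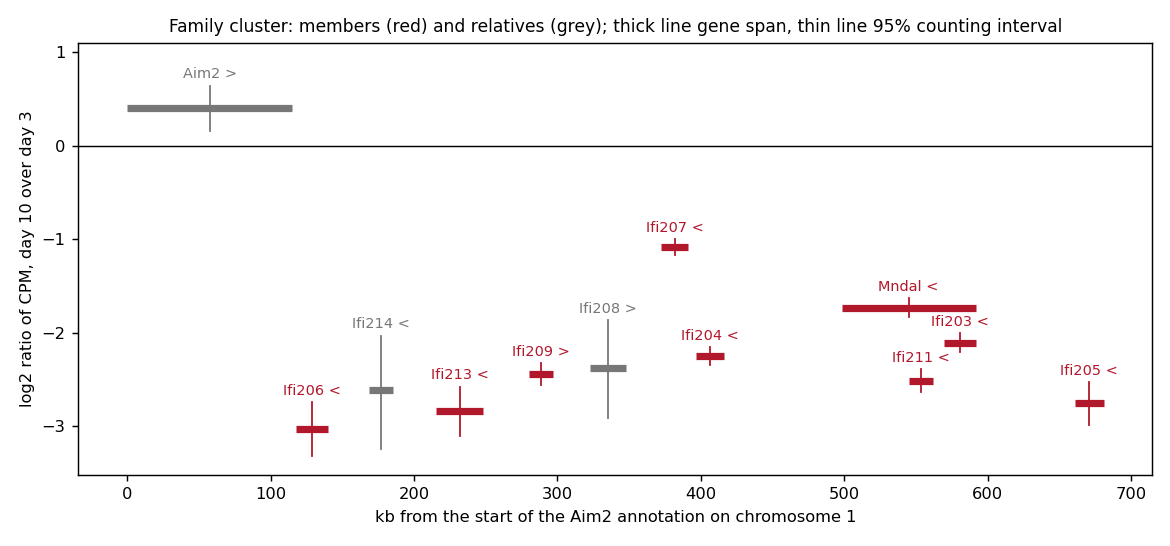
Log2 ratio of CPM at day 10 over day 3 in all kept cells (vertical axis) against position in the gene cluster, in kb from the start of the Aim2 annotation (horizontal axis). Thick lines span each gene, thin lines are 95% counting intervals and arrows give the strand. All 9 members (red) and the relatives Ifi208 and Ifi214 (grey) lie below 0, Ifi207 lies nearest to 0 among the members, and Aim2 lies above 0.

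Identical stretches can limit how far some members are told apart. The library chemistry is not given, so which part of a transcript was counted is not known, and the check below covers the 3' ends only. Of the 60-base words in the last 500 bases of their annotated coding transcripts, Ifi205 shared 74.1% and Ifi211 72.3% with each other. Ifi209 shared 61.5% with Ifi214, Ifi206 shared 21.0% with the gene model Gm18752, and Ifi213 and Mndal shared 15.9% and 11.9% with other genes of the cluster. Ifi207 shared 1.15%, and Ifi203, Ifi204 and Aim2 shared none. The annotated span of Mndal also runs across Ifi211 and into Ifi203, with 37 exonic bases in common with Ifi203. If 3' ends were counted, the split of UMIs between Ifi205 and Ifi211 and between Ifi209 and Ifi214 is uncertain.

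The make-up of the libraries differed between days. The Ly6c2 gate held 38.6%, 3.68% and 5.8% of kept cells at days 3, 6 and 10, and the C1qa gate 7.78%, 45.7% and 48.1%. The members were therefore compared between days inside each gate. In the C1qa gate they summed to 2042, 926.0 and 405.1 CPM at days 3, 6 and 10, so that the day 10 sum was 0.198 times day 3 (0.185 to 0.213), where all kept cells had 0.244. All 9 were lower at day 10 than at day 3 in this gate, against 14.7% of genes. Between day 6 and day 3, 8 members were lower, against 10.5% of genes, with Ifi207 at 0.778 times (0.663 to 0.916). Between day 10 and day 6, 9 were lower, against 12.9% of genes.

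Ifi213 had the smallest ratio in the C1qa gate. It had 81.2, 15.1 and 4.17 CPM at days 3, 6 and 10 (51, 46 and 23 UMIs), and its day 10 level was 0.0514 times day 3 (0.0300 to 0.0856). With a gate at 1 UMI in place of 2, its log2 ratio was -5.35 in place of -4.28. Ifi206 had 65.2, 23.4 and 4.89 CPM there, and Ifi205 had 111.4, 40.1 and 10.3 CPM. Ifi209 had 281.7, 83.6 and 28.8 CPM, with day 10 at 0.102 times day 3 (0.0821 to 0.127). Ifi207 again differed least, with 307.1, 238.8 and 150.8 CPM and a ratio of 0.491 (0.419 to 0.577). The cells of this gate were not alike across days: the macrophage genes were higher at the later days (above), and the 8 monocyte genes other than Ly6c2 stood at 5022, 3007 and 3813 CPM. In the same gate 3 erythroid genes summed to 1.59, 3473 and 0.725 CPM and 5 fibroblast genes to 4.77, 20.7 and 40.6 CPM at days 3, 6 and 10. The part of these differences in the result was not tested.

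For the members' sum, the Ly6c2 gate had the smallest difference between day 10 and day 3. This did not hold for Ifi203 and Ifi205, with ratios of 0.462 and 0.338, against 0.518 and 0.372 in the Cd209a gate. Their intervals overlapped between the gates. The members summed to 1431 CPM at day 10, against 2591 CPM at day 3, a ratio of 0.552 (0.520 to 0.586). At day 10, 8 members were lower than at day 3, against 19% of genes, a higher background than in the other gates, and Mndal, at 0.689 times (0.583 to 0.810), fell short of the threshold. Ifi204 stood at 306.7 CPM at day 10, against 557.8 CPM at day 3, a ratio of 0.550 (0.482 to 0.626). Ifi205 (35.4 and 104.7 CPM) and Ifi206 (29.5 and 93.6 CPM) had the smallest ratios, 0.338 and 0.315. The day 6 gate, with its 22 cells, summed to 2289 CPM (2109 to 2480). There Ifi204 had 460.9 CPM and Ifi213 only 15.4 CPM, from 4 UMIs.

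In the Cd209a gate the difference lay between day 3 and day 6. The members summed to 1413, 760.1 and 652.1 CPM at days 3, 6 and 10, and all 9 were lower at day 10 than at day 3, against 10.5% of genes. Between day 6 and day 3, 8 were lower (5 of 7 measured at 2000 UMIs per cell), against 9.44% of genes. Between day 10 and day 6, 0 were lower, against 13.9% of genes, and the sum was 0.858 times (0.798 to 0.923). At 2000 UMIs per cell that count was 2 of the 6 members still measured. Ifi211 (139.1, 45.5 and 32.8 CPM) and Ifi204 (171.4, 64.7 and 50.3 CPM) had the smallest day 10 to day 3 ratios, 0.236 and 0.293. Ifi203 (293.2, 184.0 and 151.7 CPM), Mndal (283.3, 165.8 and 147.5 CPM) and Ifi209 (199.0, 109.1 and 100.6 CPM) had ratios of 0.518, 0.520 and 0.505. That of Ifi209 was -0.37 on the log2 scale in cells reduced to 2000 UMIs, against -0.98. The gate sets no limit on Ly6c2, and the 8 other monocyte genes summed to 2508, 1590 and 1418 CPM there at days 3, 6 and 10. Their part in the result was not tested. Aim2 went the other way, with 17.3, 40.1 and 39.2 CPM and a day 10 level 2.26 times day 3 (1.53 to 3.41).

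Cells that met none of the gate definitions differed between days in the same direction. They summed to 2332, 885.5 and 509.4 CPM, and 9 members were lower at day 10 than at day 3 (10.9% of genes) and 9 at day 6 than at day 3 (9.92% of genes).

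**Figure D2:**
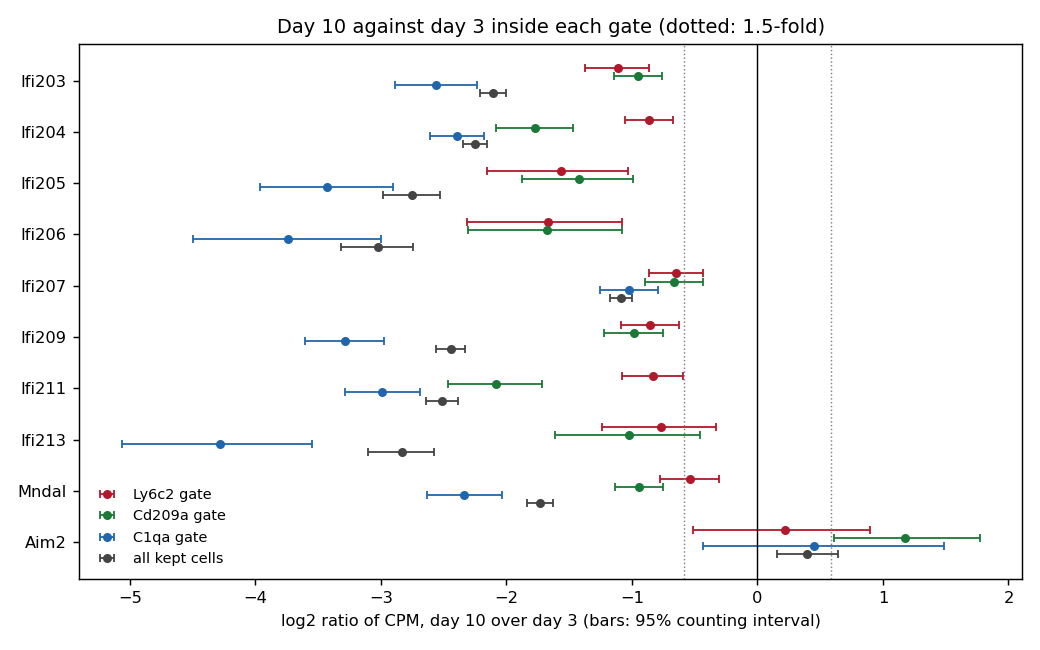
Log2 ratio of CPM, day 10 over day 3 (horizontal axis), for the 9 members and Aim2 (vertical axis) in the Ly6c2, Cd209a and C1qa gates and in all kept cells. Bars are 95% counting intervals and dotted lines mark 1.5-fold. Every member lies left of 0 in every set of cells, farthest in the C1qa gate for all but Ifi207, and Aim2 lies right of 0 with an interval that includes 0 in the Ly6c2 and C1qa gates.

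Ordered by the members' sum, the 12 combinations of day and gate with at least 50 cells began with 4 of the day 3 library. The cells with both Ly6c2 and C1qa at day 3 were highest at 3163 CPM, followed by the Ly6c2 gate at 2591 CPM, the cells outside all gates at 2332 CPM and the C1qa gate at 2042 CPM, all of day 3. The Ly6c2 gate of day 10, at 1431 CPM (1352 to 1514), and the Cd209a gate of day 3, at 1413 CPM (1363 to 1465), did not differ beyond their intervals. Nor did the C1qa gate of day 6 at 926.0 CPM (892.1 to 960.8) and the ungated cells of day 6 at 885.5 CPM (844.2 to 928.3). The Cd209a gate of days 6 and 10 and the ungated cells of day 10 came next. The C1qa gate of day 10, at 405.1 CPM, was lowest.

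**Figure D3:**
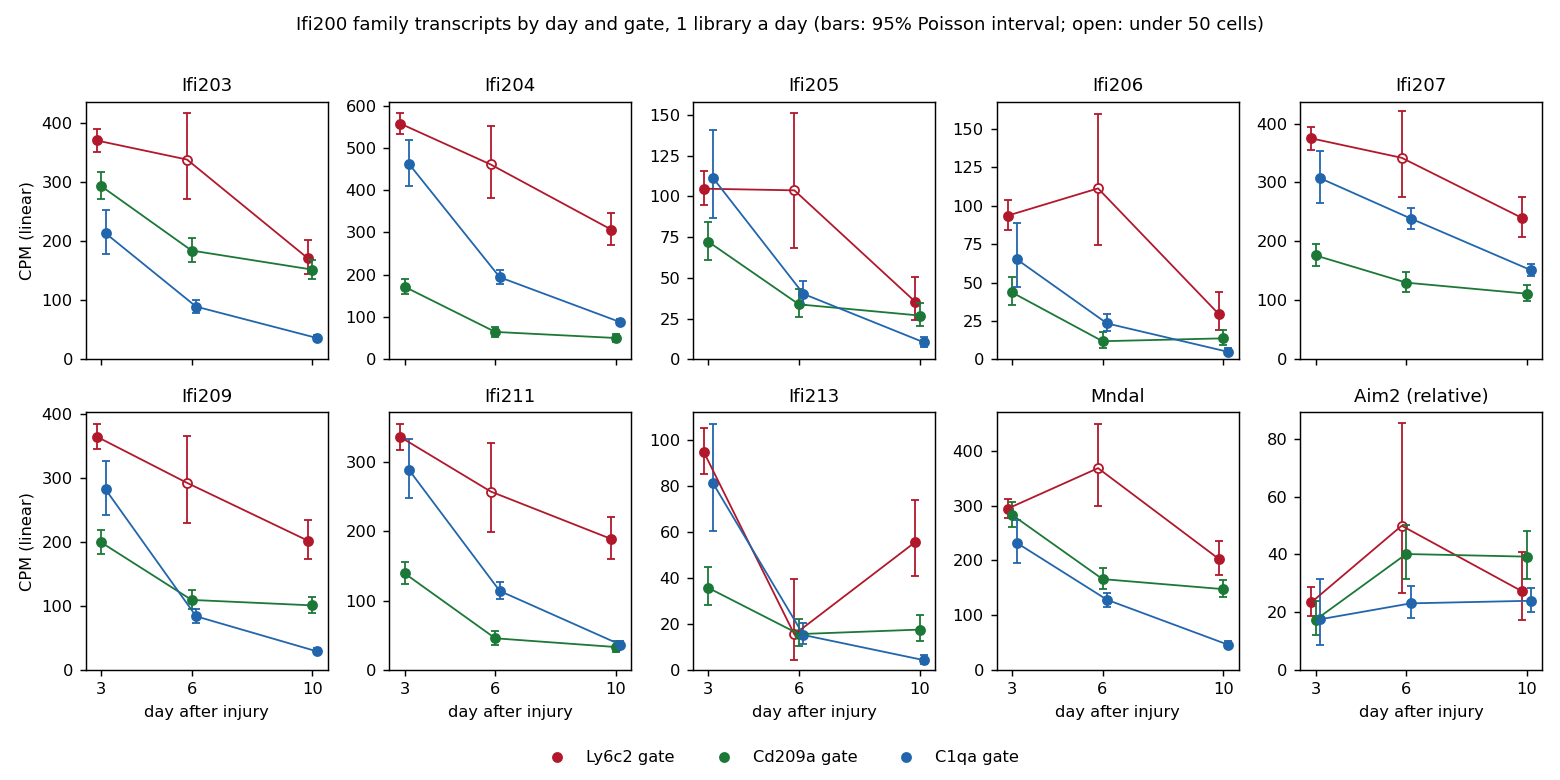
CPM (vertical axes, linear) of each member and of Aim2 at days 3, 6 and 10 after injury (horizontal axes) in the Ly6c2, Cd209a and C1qa gates. Points are sums over the cells of 1 library, bars are 95% Poisson intervals and open symbols mark the day 6 Ly6c2 gate of 22 cells. The Ly6c2 gate is highest at day 10 for every member, and the Cd209a gate is above the C1qa gate at day 10 for Ifi203, Ifi205, Ifi206, Ifi209, Ifi213 and Mndal but below it for Ifi204 and Ifi207.

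Within a library, the distance between the Ly6c2 and the C1qa gate was small at day 3 and large at day 10. A list of interferon-stimulated genes showed the same course (below). At day 3 the members' sum in the Ly6c2 gate was 1.27 times that in the C1qa gate (1.20 to 1.35). Only Ifi203 was past 1.5-fold, with 370.3 CPM in the Ly6c2 gate and 213.2 CPM in the C1qa gate, against 10.3% of genes. This count of 1 ranged from 0 to 3 under other settings. At day 10 the ratio of the sums was 3.53 (3.29 to 3.79), and all 9 members were higher in the Ly6c2 gate, against 15.1% of genes. The ratios at day 10 ran from 1.59 for Ifi207 (239.5 CPM in the Ly6c2 gate and 150.8 CPM in the C1qa gate) to 13.3 for Ifi213 (55.4 and 4.17 CPM; 7.92 to 22.9). Ifi209 stood at 7.0 times (5.61 to 8.74), Ifi206 at 6.03 and Ifi211 at 5.21. Aim2 did not differ beyond counting error at day 10, at 1.13 times (0.695 to 1.78).

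The Cd209a gate divided the family. Ifi204 was lower there than in the C1qa gate at every day, with 171.4 against 461.5 CPM at day 3, 64.7 against 194.1 CPM at day 6 and 50.3 against 87.7 CPM at day 10. The ratios were 0.371, 0.334 and 0.573, and the last of these was a log2 ratio of -1.41 in cells reduced to 2000 UMIs, against -0.80. Ifi207 followed with ratios of 0.573, 0.544 and 0.738. Ifi211 was at 0.483 and 0.399 times the C1qa gate at days 3 and 6 and did not differ beyond counting error at day 10 (0.905, 0.687 to 1.18).

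Ifi203 and Mndal lay on the other side. Ifi203 had 293.2 against 213.2 CPM at day 3, 184.0 against 89.1 CPM at day 6 and 151.7 against 36.1 CPM at day 10, Cd209a gate before C1qa gate. Its ratio was 1.37 at day 3, 2.06 at day 6 and 4.21 at day 10. The Mndal ratios were 1.22, 1.30 and 3.20. For 4 members the order of the gates turned round between day 3 and day 10. The share of all genes that did so was not counted. The median of a list of interferon-stimulated genes also turned round (below). Ifi209 was at 0.707 times the C1qa gate at day 3, 1.31 times at day 6 and 3.49 times at day 10. The ratios were 0.647, 0.840 and 2.60 for Ifi205, 0.668, 0.504 and 2.79 for Ifi206, and 0.439, 1.03 and 4.19 for Ifi213.

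At day 3, 5 members were lower in the Cd209a gate by at least 1.5-fold, against 27.3% of genes, and 0 were higher, against 20.7%. At day 6, 4 were lower, against 31.2% of genes, and 1 (Ifi203) was higher, against 16.4%. At day 10 Ifi204 alone was lower, against 32.8% of genes, and 6 were higher, against 18.6% (3 of the 6 still measured at 2000 UMIs per cell). Broad differences between these gates thus form the background of each count. The UMIs of Ifi203 and Ifi204 at day 10, 356 and 118 in the Cd209a gate but 199 and 484 in the C1qa gate, show that the members were not in 1 fixed proportion in these cells.

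**Figure D4:**
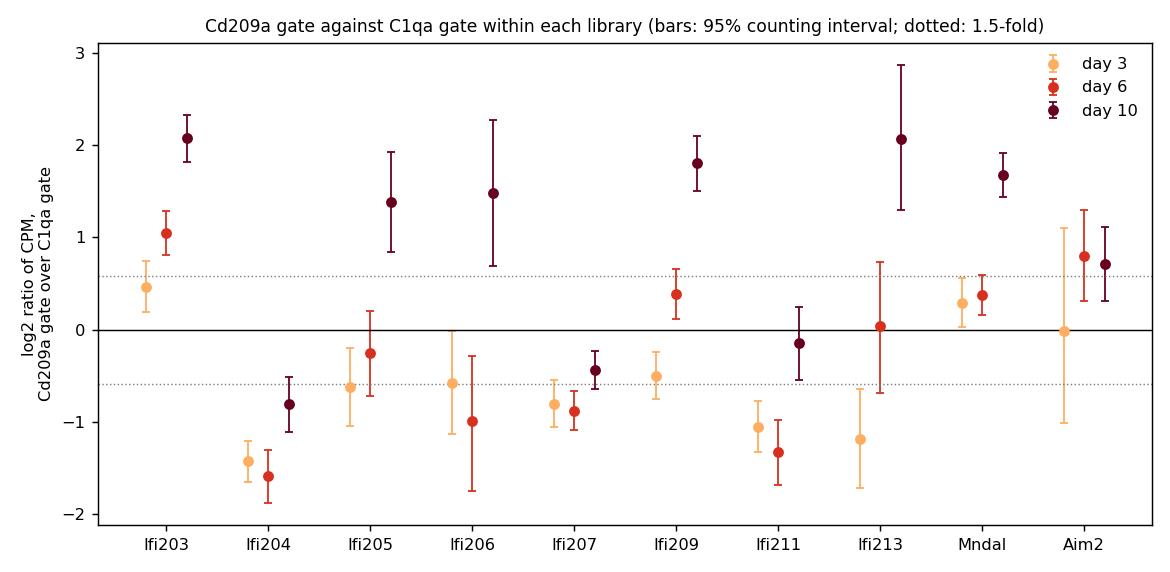
Log2 ratio of CPM, Cd209a gate over C1qa gate of the same library (vertical axis), for each member and Aim2 (horizontal axis) at days 3, 6 and 10. Bars are 95% counting intervals and dotted lines mark 1.5-fold. Ifi204 and Ifi207 lie below 0 at all 3 days, Ifi203 and Mndal lie above 0 at all 3, and Ifi205, Ifi206, Ifi209 and Ifi213 lie below 0 at day 3 and above it at day 10.

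Likeness between members was taken over the 12 sums, which share libraries and depth. They include the Cd209a and C1qa sums just described, so that these values restate part of that comparison. Pearson's r of log2(CPM + 5) was 0.986 between Ifi204 and Ifi211, 0.986 between Ifi204 and Ifi207, 0.981 between Ifi209 and Ifi213 and 0.965 between Ifi203 and Mndal. It was lowest between Ifi203 and Ifi207, at 0.62, between Ifi207 and Mndal, at 0.65, and between Ifi203 and Ifi204, at 0.67. The promoter windows shown for Ifi203 and Mndal are identical (above). Ifi205 and Ifi211, with 53 of 60 window bases and much of their 3' ends in common, had an r of 0.89. Ifi206 and Ifi207, with 30 window bases in common, also had 0.89, and Ifi205 and Ifi206, with 32, had 0.95. A link between promoter windows and likeness was not tested.

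Outside the family, 3881 genes with at least 50 CPM in 1 or more of the 12 sums were ranked by likeness to the members' sum. The nearest were Trim30a (r = 0.992), Ogfr (0.991), Oas3 (0.990), Rtp4 (0.986) and Isg15 (0.983). Oas3 makes the 2'-5' oligoadenylates that switch on RNase L, and Isg15 is a ubiquitin-like protein. The same 5 genes came first with a pseudocount of 1 and with a minimum of 20 CPM. The nearest gene to a single member was Ms4a4c for Ifi203, Ube2l3 for Ifi204 and Ifi211, Oasl2 for Ifi205, Oas3 for Ifi206, Hnrnph2 for Ifi207, Slfn5 for Ifi209, Zbp1 for Ifi213 and Sp100, a nuclear body protein gene, for Mndal (r = 0.997). For Aim2, r with the members' sum was -0.31.

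Single cells were compared after each was reduced at random to 2000 UMIs. A cell of the Ly6c2 gate then held on average 5.58 UMIs of the 9 genes at day 3 and 3.11 at day 10. The averages were 2.96, 1.63 and 1.28 at days 3, 6 and 10 in the Cd209a gate and 4.45, 1.89 and 0.828 in the C1qa gate. Cells with no UMI of any member made up 6.07% at day 3 and 31.6% at day 10 in the Ly6c2 gate, and 13%, 34.1% and 54.4% at days 3, 6 and 10 in the C1qa gate. At full depth, 98.6%, 93.0% and 77.4% of C1qa-gated cells had a UMI of at least 1 member. No cell type that should lack these genes was at hand as a background: the 4 non-blood cells found, all of day 10 with a median of 9809 UMIs, held 14 member UMIs, in 3 of the 4. That is 3.5 UMIs per cell and 375.0 CPM (205.0 to 629.1), against 3.41 UMIs per cell and 405.1 CPM in the C1qa gate of day 10. The members' sum in that gate, and the share of its cells with a UMI, cannot be told from the level in these 4 cells.

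Within the C1qa gate of day 10 the spread between cells was wide, with a 90th percentile of 2 member UMIs and a highest cell at 25. At 2000 UMIs, Ifi204 was seen in 59.4% of C1qa-gated cells at day 3, 26.6% at day 6 and 15.2% at day 10, and in 60.4% and 36.7% of Ly6c2-gated cells at days 3 and 10. Ifi203 was seen in 39.8%, 35.5% and 25.5% of Cd209a-gated cells and in 31.9%, 11.5% and 6.42% of C1qa-gated cells at days 3, 6 and 10. Ifi213 was seen in 17.4% of C1qa-gated cells at day 3 and 0.321% (2 of 623 cells) at day 10.

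**Figure D5:**
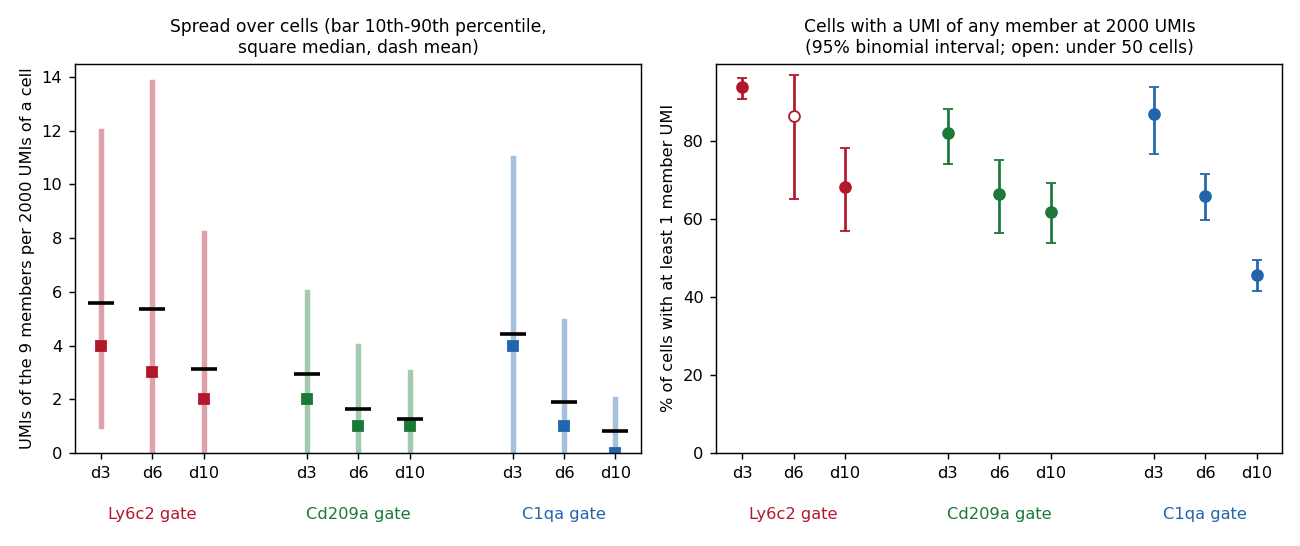
Left, UMIs of the 9 members per 2000 UMIs of a cell (vertical axis) by gate and day (horizontal axis, d3, d6 and d10), with a bar for the 10th to 90th percentile of cells, a square for the median and a dash for the mean. Right, percent of cells with at least 1 member UMI at that depth, with 95% binomial intervals, open for the 22 cells of the day 6 Ly6c2 gate. In the C1qa gate the mean is 4.45, 1.89 and 0.828 and the share of cells is 87.0%, 65.9% and 45.6% at days 3, 6 and 10.

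The members' summed UMIs in each cell were set beside those summed over 30 interferon-stimulated genes, a list with no family member in it. At 2000 UMIs, Spearman's rho over cells was 0.55 in the Ly6c2 gate at day 3 (n = 346 cells) and 0.32 at day 10 (n = 79 cells). It was 0.51, 0.43 and 0.13 in the Cd209a gate and 0.37, 0.38 and 0.25 in the C1qa gate at days 3, 6 and 10. For single members rho ran from 0.09 (Ifi207) to 0.41 (Ifi211) in the Ly6c2 gate at day 3. The range was -0.16 (Ifi207) to 0.36 (Ifi213) in the C1qa gate at day 3. In the Cd209a gate at day 10 it was -0.11 (Mndal) to 0.29 (Ifi211). The cells of each value come from 1 library and share its pooled mice. Between pairs of members the median rho per gate and day was 0.08 to 0.31, and with such sparse counts these values carry no result.

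The rest of the pathway was read from lists of genes, with day 10 against day 3 in all kept cells, where 8.94% of genes were lower and 24.6% were higher. All 30 of the interferon-stimulated genes were lower (median log2 ratio -2.18), with Isg15 at 77.5 CPM (day 10) against 806.5 CPM (day 3). Of 16 nucleic acid sensors and adaptors, 8 were lower and 2 higher (median -0.55). Zbp1, a sensor of Z-form nucleic acids, had 41.8 CPM at day 10, against 310.9 CPM at day 3, and Dhx58, a regulator of the RIG-I pathway, had 16.3 and 68.5 CPM. Mb21d1 (cGAS, which makes the messenger that activates STING) had 15.5 and 29.2 CPM, and Tmem173 (STING) had 40.4 and 77.2 CPM. Tlr3, an endosomal receptor for double-stranded RNA, and Dhx36, a helicase, were higher, with log2 ratios of 0.78 and 0.66.

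Of 13 genes of signalling to interferon, 6 were lower and 0 higher. Ifnb1 had 2 UMIs at day 10 and 55 at day 3, and Irf7, which drives interferon transcription, had 46.1 and 389.2 CPM.

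Of 15 inflammasome genes, 4 were lower and 1, Nlrp1b, was higher (log2 ratio 1.13, from 87 UMIs at day 10 and 32 at day 3). Il18 (22.6 against 74.1 CPM) and Il1b (2056 against 4009 CPM) had the smallest day 10 to day 3 ratios of these. Of 10 nucleases and related enzymes that remove or edit nucleic acids, 3 were lower, among them Samhd1 (log2 ratio -1.17) and Adar (-1.09), and 1 was higher, Pld3 (0.85). The median log2 ratio of the inflammasome list was -0.14, that of the 9 members -2.44 and that of all genes tested 0.17.

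Inside the gates the interferon-stimulated list ran beside the members. At day 10 against day 3, 28 of 28 tested genes were lower in the C1qa gate, against 14.7% of all genes. The median log2 ratio was -2.61, against -2.99 for the members. In the Cd209a gate 28 of 29 were lower, against 10.5% of all genes (medians -1.46 and -1.03). In the Ly6c2 gate 20 of 29 were lower, against 19% of all genes (-0.97 and -0.85). Between day 10 and day 6 in the Cd209a gate, 8 of 27 were lower, against 13.9% of all genes. The median there was -0.08, where the median of the members was -0.22. The list was also compared between gates of the same library. At day 3, 5 of 29 were higher in the Ly6c2 than in the C1qa gate, against 10.3% of all genes. The median was 0.17, against 0.29 for the members. At day 10, 28 of 29 were higher, against 15.1% of all genes (medians 2.14 and 2.25). In the Cd209a against the C1qa gate at day 3, 12 of 30 were lower and 6 higher, against 27.3% and 20.7% of all genes. The medians were -0.27 for the list and -0.63 for the members. At day 10, 2 of 28 were lower and 17 higher, against 32.8% and 18.6% of all genes (medians 0.95 and 1.48). These comparisons share their libraries, so the values are set side by side only.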

How the data were processed

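Per the labels, wound cells were digested, pooled from 2 mice a day and run on the 10x Chromium platform. The authors deposited unnormalised UMI counts made with Cell Ranger 3.0.2 on mm10, per the submitters' processing notes. The annotation release and the library chemistry are not given in the sources used here.

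Cells with at least 200 genes and under 10% mitochondrial UMIs were kept (900, 598 and 1362 of 1472, 1196 and 2209 barcodes). Scrublet called 12, 6 and 5 doublets, which were kept, and 2 barcodes occurred in more than 1 library. UMIs were summed by day and gate and scaled to CPM (Python 3.11.15, scipy 1.17.1, scanpy 1.11.5). Intervals are exact Poisson for CPM, conditional binomial for ratios and Clopper-Pearson for shares. These 95% intervals cover counting error only. A gene entered with at least 20 UMIs over both sums, sums under 3 UMIs were set to 3, and 1.5-fold was the threshold. TMM factors (edgeR 4.0.16) were used in 1 alternative. The ratio script was tested on simulated data. No replicate exists, so no p-value is given.

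Named genes were all 9 members, their relatives, the nearest genes by likeness, the extremes of each list and genes described by role. 1 further gene list is not reported here. Members and lists were chosen with earlier results of these data known, so no count over them is independent support. Coordinates come from GENCODE vM21 (GRCm38) and promoters from RefSeq (GRCm38.p6).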

Additional observations from a re-analysis of the deposited data

Results flagged for a closer look

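The members were also counted in barcodes outside every comparison, those left out by the filter on genes and mitochondrial UMIs. In these 572, 598 and 847 barcodes the members summed to 1935 CPM at day 3, 614.4 CPM at day 6 and 493.6 CPM at day 10, above the levels of 2.08, 1.49 and 1.61 CPM that 3 UMIs would give. The order of the days was that of the kept cells, whose sums were 2279, 935.4 and 555.3 CPM. The left-out barcodes were shallower, with medians of 2350, 2936 and 1970 UMIs.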

How the results depend on the processing

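No paired analysis was possible because each day has 1 library, and for the same reason no replicate could be left out. Counts of members past 1.5-fold were recomputed under other cell filters, scalings, depths, gates and UMI minimums. At day 10 against day 3 in all kept cells, 9 members were lower under each alternative run. Counts that moved by over 1.5 times were few. With cells reduced to 2000 UMIs, 5 of 7 members still measured were lower in the Cd209a gate at day 6 against day 3 and 2 of 6 at day 10 against day 6. At that depth 3, not 1, were higher in the Ly6c2 than in the C1qa gate at day 3, and 2 (day 6) and 3 (day 10) were higher in the Cd209a than in the C1qa gate. The day 3 count for the Ly6c2 gate was 0 with no cell filter or a mitochondrial limit of 20%, and 2 with TMM factors, with the mean of per-cell CPM or with gates per 10000 UMIs. For the Cd209a gate at day 3, 1 member was higher with TMM factors, with a gate at 1 UMI or with gates per 10000 UMIs. At day 10, with a gate at 1 UMI, 0 were lower there. The cause was not tested. Of single values, the log2 ratio of Ifi213 between the Ly6c2 and the C1qa gate at day 10 was 3.63 to 4.88, that of Ifi209 in the Cd209a gate at day 10 against day 3 was -1.0 to -0.37, that of Ifi205 in all kept cells at day 10 against day 6 was -2.10 to -1.28, and that of Ifi213 there was -1.18 to -0.31. Depth limits Ifi206 and Ifi213 most, with 27 and 23 UMIs in the C1qa gate at day 10.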
